A study of Mus musculus with 2 samples.

Results

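The nuclei described here are adipocyte nuclei from the tissue around the mouse eye, picked out of a spatial single-nucleus data set. A barcode was counted as an adipocyte nucleus when it had at least 200 detected genes, under 10% of its molecules from mitochondrial genes, and at least 3 molecules, making up at least 0.15% of its total, from 4 fat cell genes together: Adipoq, Plin1, Cidec and Plin4. The rule took 224 of 16867 kept barcodes, or 1.33% (exact binomial 95% interval 1.16 to 1.51%). Since those 4 genes chose the nuclei, their levels are given as a description only. The study concerns mice heterozygous for the C213Y allele of Prph2, a photoreceptor disc protein, on a C57BL/6J background, with wild types of the same age and sex, at 6 months for the spatial work. The library used here, called T1, came from untreated, fresh-frozen tissue labelled as retina, and its genotype and animal are not given. It therefore has no group and no control, and every comparison below is between nuclei of this 1 library, without replicates and without a test.

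White fat cells hold a single large droplet of triglyceride behind a coat of perilipin proteins, fill it by making or importing fatty acids, and empty it through lipases when catecholamines signal and insulin is low. Brown and beige fat cells hold many small droplets and burn fatty acids for heat through the uncoupling protein Ucp1. Fat around the eye fills the orbit behind the globe, between the eye muscles. Its cells are not part of the retina.

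The expression library held 55843593 molecules, counted by unique molecular identifier (UMI). Adipocyte nuclei held 501980 of them, with a median of 1892.5 UMIs (375 to 29493) and 1028.5 genes per nucleus, against a median of 1809 UMIs in the other 16643 kept barcodes. The labels describe 1 section of 1 eye, whereas the positions on the chip form 4 separate rings, numbered 1 to 4 from left to right. The pieces differed beyond the adipocyte nuclei: Xist, the non-coding RNA of the inactive X chromosome, was at 773 CPM (a gene's counts scaled to the class's total UMIs) in the other barcodes of piece 4, against 43.0, 72.6 and 36.9 CPM in those of pieces 1, 2 and 3. In adipocyte nuclei, Xist had 264 UMIs in piece 4, and 0, 3 and 0 in pieces 1, 2 and 3. The Y-linked Uty had 3 UMIs in the 135 adipocyte nuclei of piece 4, and 16, 19 and 8 in the 27, 48 and 14 of pieces 1, 2 and 3. Pooled levels can hide such differences, and levels by piece are given for the genes described last. Levels are pooled over the nuclei of a class, with exact Poisson 95% intervals in parentheses, which cover counting error only, as do the intervals of shares. For a class at 0, the limit given is that of 3 counts.

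Position was not used by the rule. Every one of the 224 adipocyte nuclei lay farther from the centre of its piece than the median retinal pigment epithelium (RPE) barcode in the same direction. That is a share of 100% (98.4 to 100%). Of the RPE barcodes themselves, 47.8% lay outside by this measure, a share set by construction because their own median draws the line. Adipocyte nuclei lay a median of 952 units of the position table beyond the median RPE barcode, a unit that no source used here ties to a length. The middle 50% of them lay 575 to 1523 units out. With pieces drawn instead from circles fitted to the RPE barcodes, 222 of 224 lay outside. The share outside was 90.8% (88.6 to 92.7%) for barcodes that met a fibroblast marker rule, 97.8% (95.9 to 98.9%) for skeletal muscle, 66.5% (63.1 to 69.7%) for endothelium and 48.8% (48.0 to 49.6%) for all other kept barcodes. Adipocyte nuclei thus lay on the same side of the median RPE barcode as nearly all muscle barcodes.

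**Figure D1:**
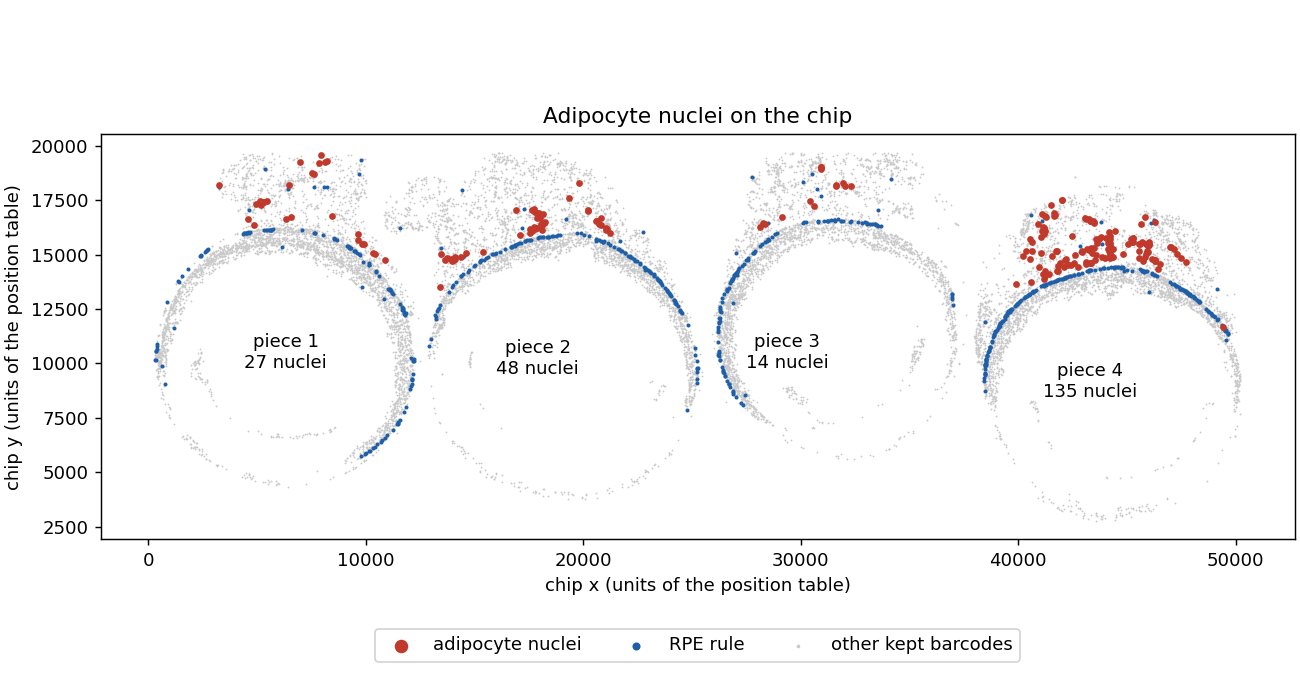
Positions of kept barcodes on the chip, in units of the position table (x and y axes). Red points are the 224 adipocyte nuclei, blue points barcodes of the RPE rule and grey points the other kept barcodes. The adipocyte nuclei sit in patches outside the blue arcs, with 135 of them in piece 4.

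The nuclei were spread unequally over the pieces. Piece 1 held 27 (0.605% of its kept barcodes, 0.399 to 0.878%), piece 2 held 48 (1.43%, 1.05 to 1.89%), piece 3 held 14 (0.333%, 0.182 to 0.559%) and piece 4 held 135 (2.79%, 2.35 to 3.30%). Only the intervals of pieces 1 and 3 overlapped. Kept barcodes numbered 4466, 3365, 4199 and 4837 in pieces 1 to 4. With pieces drawn from circles fitted to the RPE barcodes they numbered 4486, 4116, 3714 and 4551, and the counts of adipocyte nuclei did not change. Intervals of the shares were not computed for that division, in which the share of piece 2 is lower. The number of kept barcodes outside the RPE also differed, at 1418, 1891, 2001 and 2414 in pieces 1 to 4. Of those, 1.90, 2.54, 0.700 and 5.59% were adipocyte nuclei. Fewer fat cells and less tissue kept in a piece cannot be told apart from these counts.

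Adipocyte nuclei clustered together. Among the 20 nearest barcodes of an adipocyte nucleus, 18.8% were adipocyte nuclei, against 1.33% of all kept barcodes, a ratio of 14.2. The ratio was 16.2, 11.4, 22.5 and 8.15 within pieces 1 to 4. In all, 201 of 224 nuclei had at least 1 other adipocyte nucleus among the 20, with a median of 4, and 23 had none. Macrophage-rule barcodes made up 3.75% of the neighbours, against 1.25% of kept barcodes (ratio 3.01, and 1.88 to 5.51 within pieces). Fibroblasts had a ratio of 1.68, endothelium 1.64 and muscle 1.49, while RPE barcodes were scarce, at 0.278. In each piece the adipocyte ratio was the highest of the 10 classes. Other classes also lay near their own kind, with ratios of 1.73 for rods, 3.88 for macrophages, 8.11 for muscle and 24.6 for myelinating glia.

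**Figure D2:**
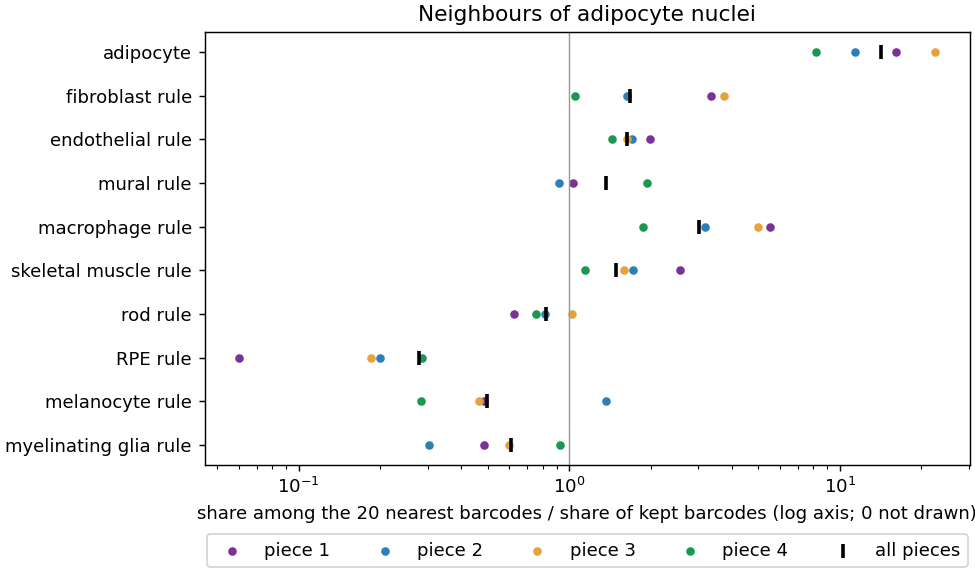
Share of each class among the 20 nearest barcodes of adipocyte nuclei over its share of kept barcodes (log x axis), with a coloured point per piece and a black tick for all pieces. The tick for adipocyte nuclei stands at 14.2, those for macrophages at 3.01 and for RPE at 0.278.

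The 4 genes of the rule were spread over most of the nuclei. Plin4, a perilipin of the droplet surface (chr17:56100587-56109948, GRCm38.p6), was detected in 213 of 224, Plin1, the main droplet coat protein of fat cells (chr7:79721164-79732904), in 194, Cidec, which fuses droplets (chr6:113424634-113435760), in 178, and Adipoq, the hormone adiponectin (chr16:23146536-23157968), in 117. A nucleus had 3 to 56 UMIs of the 4 genes (median 9), or 0.152 to 1.46% of its total (median 0.510%). By piece, the median was 0.564, 0.524, 0.386 and 0.541%. Plin4 overlaps Hdgfl2, and the strand setting of the counting is not given, so its reads cannot be assigned with certainty. Just inside the threshold, the 18 nuclei with exactly 3 rule UMIs had Ghr, the growth hormone receptor, at 5190 CPM, Pparg at 916 CPM, Fabp4 at 122 CPM, Nrg4 at 427 CPM and Scd1 at 4152 CPM. Just outside it, 22 barcodes with 2 rule UMIs and the share met had Ghr at 5635 CPM, Pparg at 1064 CPM, Fabp4 at 188 CPM, Nrg4 at 62.6 CPM and Scd1 at 3569 CPM. The 9 nuclei with a share of 0.15 to 0.20% had Ghr at 2535 CPM, Pparg at 739 CPM, Fabp4 at 621 CPM, Nrg4 at 67.2 CPM and Scd1 at 3761 CPM. The 14 barcodes with 3 or more rule UMIs and a share of 0.10 to 0.15% had Ghr at 3577 CPM, Pparg at 715 CPM, Fabp4 at 290 CPM, Nrg4 at 375 CPM and Scd1 at 12656 CPM. Barcodes just outside the threshold thus also carried fat cell genes. Several of these levels rest on few UMIs, such as 2 and 3 of Fabp4 at 3 and 2 rule UMIs.

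The other markers of fat cells were present. Fabp4, the fatty acid binding protein of adipocytes (chr3:10204342-10208616), was at 598 CPM (532 to 669) in adipocyte nuclei, against 10.2 CPM in the other kept barcodes. It was detected in 50.4% of adipocyte nuclei, against 2.40% of the others and 2.03% of rod-rule barcodes, which should lack it and had a median of 1050 UMIs. After thinning to 500 UMIs, which kept 220 adipocyte nuclei, 15978 others and 1993 rods, those shares were 18.2, 0.795 and 0.351%. Nrg4, a secreted neuregulin of fat (chr9:55220222-55283654), was at 651 CPM (583 to 726) in adipocyte nuclei, against 12.4 CPM in the others. It was detected in 54.9% of adipocyte nuclei, against 2.98% of the others and 3.00% of rods (27.3, 0.607 and 1.00% after thinning). Both genes were higher in adipocyte nuclei than in the rest of the same piece in all 4 pieces. In piece 3, however, Fabp4 was detected in only 2 of 14 nuclei, and in 0 of 14 after thinning.

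Markers of other cell types were checked in the same nuclei. Of 8 sebaceous and Harderian gland markers, 4 were at 0 and the sum was 15.9 CPM, and all 6 lacrimal markers were at 0 (Aqp5, a water channel of acinar cells, among them; 0 UMIs of 501980, which at 3 counts allows up to 5.98 CPM). The 6 fibroblast markers together were at 382 CPM in adipocyte nuclei, against 9953 CPM in fibroblast-rule barcodes, and Col1a1 was detected in 13 nuclei. The 6 rod markers summed to 1110 CPM, against 35840 CPM in rods. By piece, rod markers were at 1635, 1339, 286 and 987 CPM, and skeletal muscle markers at 57.9, 1031, 35.7 and 1229 CPM. In all, 21 of the 224 nuclei also met the rule of another class (2, 4, 0 and 15 in pieces 1 to 4), and without them the muscle sum was 60.8, 47.0, 35.7 and 63.9 CPM. The deepest nucleus, of piece 4, held 29493 UMIs, 5.88% of all UMIs of the class, with 56 rule UMIs but also 77 endothelial, 122 rod and 45 mural marker UMIs. Endothelial markers in piece 4 summed to 611 CPM with the nuclei of several classes and to 22.8 CPM without them. The ribosomal-overlap transcript Gm42418 took 13.7% of UMIs in adipocyte nuclei, against 7.81% over all kept barcodes. Fibroblast-rule barcodes had nearly as much, at 131170 CPM, against 136840 CPM in adipocyte nuclei and 78216 CPM in endothelium. Leaving out the 21 nuclei of several classes moved Pparg to 1614 CPM, against 1468 CPM with them, and the number of genes higher than in the rest to 1321, against 1205. With Gm42418 and mitochondrial genes left out of the totals, Pparg was at 1710 CPM and 1392 genes were higher.

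Which genes set fat cell nuclei apart was read from pooled levels. A gene was called higher or lower at a ratio of at least 2 between the 2 pooled levels, where their mean was at least 20 CPM. By that rule 15.4% of 7815 genes were higher in adipocyte nuclei than in the other kept barcodes and 26.6% were lower. Against fibroblasts, 15% of 7433 genes were higher and 20% lower, and against endothelium 14.7% of 7633 were higher and 23.9% lower. The nuclei were chosen by genes of the same profiles, so the counts below describe the class and support nothing beyond it. The median log2 ratio of a list is over all its measured members, with 5 CPM added to each level, beside -0.11 for all genes that entered the comparison with the rest. Calls are given out of all members, but members below a mean of 20 CPM could not be called. Those that entered were 13 transcription factors, 10 droplet and lipolysis, 11 triglyceride synthesis, 9 uptake and 14 fatty acid synthesis genes. For insulin action, receptors, secreted factors and heat production they were 13, 11, 11 and 9. For oxidation, basement membrane and progenitor genes they were 10, 14 and 5.

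Of 14 transcription factors of fat cell differentiation, 13 were higher in adipocyte nuclei than in the rest and 0 lower (median log2 ratio 2.72). Pparg, the nuclear receptor that directs fat cell differentiation (chr6:115360879-115490404), was at 1468 CPM (1364 to 1578) in adipocyte nuclei, against 15.7 CPM in the rest and 16.4 CPM in fibroblasts. Cebpa, its partner in that programme, was at 460 CPM, against 4.62 CPM in the rest. Mlxipl, which encodes the glucose-responsive factor ChREBP, was at 624 CPM, against 8.5 CPM, and Nr1h3, an oxysterol receptor, at 85.7 CPM, against 5.23 CPM. Klf15, a factor of fasting metabolism, was at 145 CPM, against 16.5 CPM. The smallest ratios were those of Klf9 (237 CPM, against 96.3 CPM) and the retinoid receptor Rxra (351 CPM, against 78.8 CPM). Ebf2, a factor of the preadipocyte and brown lineages, was at 568 CPM in adipocyte nuclei, against 65.1 CPM in the rest but 1281 CPM in fibroblasts. Against fibroblasts, 10 of the 14 were higher and 2 lower.

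Droplet and lipolysis genes followed. Without the rule genes, 9 of 15 were higher in adipocyte nuclei than in the rest, 0 were lower and 3 were at 0 (median log2 ratio 2.44). Lipe, hormone-sensitive lipase, was at 1544 CPM (1437 to 1656) in adipocyte nuclei, against 23.3 CPM in the rest, and was detected in 195 of 224. Pnpla2, the lipase that starts triglyceride breakdown, was at 520 CPM, against 17.8 CPM. G0s2, its inhibitor, was at 91.6 CPM, against 2.81 CPM, and Aqp7, the channel by which glycerol leaves the cell, at 147 CPM, against 3.20 CPM. Plin2, a droplet coat protein of many cells, was at 135 CPM, against 10.6 CPM. Mgll, monoglyceride lipase, was at 1217 CPM, against 220 CPM. Among those with at least 20 UMIs the smallest ratio belonged to Bscl2, which encodes the droplet-forming protein seipin (106 CPM, against 42.5 CPM).

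Triglyceride synthesis and fatty acid uptake formed the next groups. Of 12 synthesis genes, 7 were higher in adipocyte nuclei than in the rest and 2 lower (median log2 ratio 2.99), and of 12 uptake genes 7 were higher and 1 lower (2.75). Pck1, whose enzyme supplies the glycerol backbone in fat, was at 681 CPM in adipocyte nuclei, against 1.42 CPM in the rest. Gpd1, which makes glycerol phosphate, was at 406 CPM, against 9.55 CPM, and Acsl1, which activates fatty acids, at 2646 CPM, against 120 CPM. Agpat2 and Dgat2, which add fatty acids to the glycerol backbone, were at 329 and 825 CPM in adipocyte nuclei, against 4.53 and 16.5 CPM in the rest. Agpat3 was lower, at 301 CPM, against 703 CPM, and Gpam was at 213 CPM, against 119 CPM. Lpl, the lipase that frees fatty acids from lipoproteins, was at 667 CPM, against 37.9 CPM, Cd36, a fatty acid transporter, at 422 CPM, against 25.8 CPM, and Slc27a1 at 1044 CPM, against 78.0 CPM. Cavin1, a caveola protein, was at 229 CPM, against 41.6 CPM, and Lmf1, which matures lipases, at 79.7 CPM, against 54.8 CPM.

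The nuclei carried the genes of insulin action: 12 of 14 were higher in adipocyte nuclei than in the rest and 0 lower (median log2 ratio 2.54). Pde3b, the phosphodiesterase through which insulin blocks lipolysis, was at 1456 CPM (1353 to 1566) in adipocyte nuclei, against 21.3 CPM in the rest. Slc2a4, the insulin-driven glucose transporter, was at 163 CPM, against 15.2 CPM, and Trarg1, which regulates its traffic, at 534 CPM, against 17.8 CPM. Tbc1d4, a further step of that traffic, was at 566 CPM, against 71.5 CPM. Pik3r1, a regulatory subunit of the kinase below the insulin receptor, was at 1382 CPM, against 114 CPM. Insr, the receptor itself, was at 643 CPM, against 218 CPM, and Ptpn1, a phosphatase that acts on it, at 69.7 CPM, against 79.0 CPM.

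Receptors for other hormones were higher in 10 of 16 cases and lower in 0 (median log2 ratio 2.10). Ghr (chr15:3317755-3583352) was at 9351 CPM (9085 to 9622) in adipocyte nuclei, against 123 CPM in the rest and 733 CPM in fibroblasts, and was detected in 210 of 224 nuclei. Adrb3, the adrenergic receptor typical of rodent fat, was at 289 CPM (244 to 340), against 0.517 CPM. Acvr1c, a receptor of the activin family, was at 681 CPM, against 1.13 CPM, Ptger3, a prostaglandin receptor coupled to inhibition of lipolysis, at 590 CPM, against 3.75 CPM, and Hcar1, a lactate receptor with the same coupling, at 89.6 CPM, against 0.185 CPM. Adora1, the adenosine receptor, was at 69.7 CPM, against 26.9 CPM, and Nr3c1, the glucocorticoid receptor, at 359 CPM, against 108 CPM. Adra2a was at 0 UMIs.

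**Figure D3:**
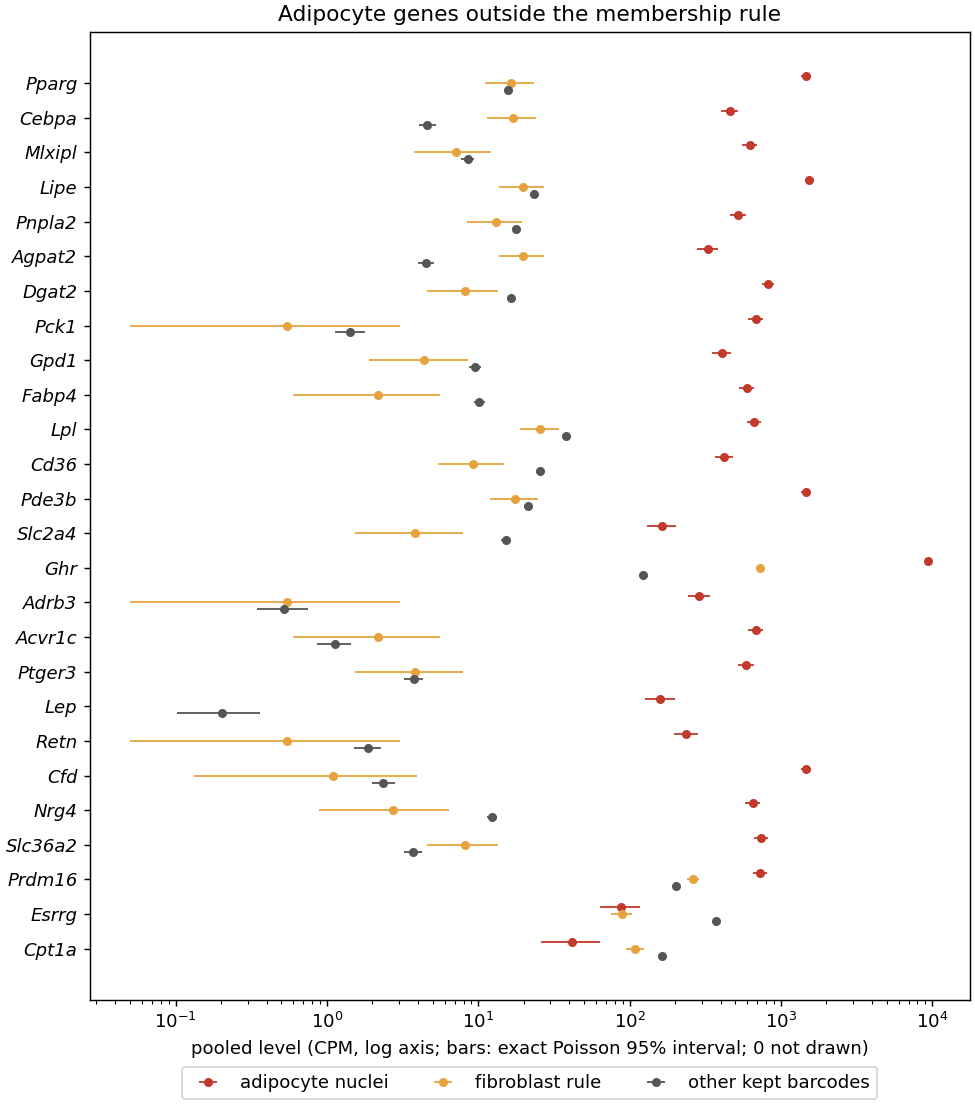
Pooled level of 26 genes that were not in the rule (log x axis, CPM) in adipocyte nuclei (red), fibroblast-rule barcodes (orange) and the other kept barcodes (grey), with exact Poisson 95% intervals and levels of 0 not drawn. For Pparg the 3 levels are 1468, 16.4 and 15.7 CPM, and only Esrrg and Cpt1a, at the foot, have their adipocyte level below that of the other kept barcodes.

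Among 17 secreted factors outside the rule, 9 were higher in adipocyte nuclei than in the rest and 1 lower (median log2 ratio 2.89). Cfd, the complement factor adipsin (chr10:79890853-79892655), was at 1468 CPM (1364 to 1578) in adipocyte nuclei, against 2.37 CPM in the rest. Retn, the hormone resistin (chr8:3655770-3659818), was at 237 CPM (196 to 284), against 1.87 CPM. Lep, the satiety hormone leptin (chr6:29060221-29073876), was at 159 CPM (126 to 198), against 0.203 CPM, and was detected in 49 nuclei. Without piece 4 its level was 49.8 CPM. Nnat, the imprinted gene of the proteolipid neuronatin, was at 319 CPM, against 8.67 CPM, and without piece 4 at 29.9 CPM, against 9.84 CPM. Nnat lies within Blcap. Vegfa was at 544 CPM, against 125 CPM, and Apoe at 317 CPM, against 238 CPM.

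Genes of heat production were mixed. Ucp1 (chr8:83290348-83298456) had 0 UMIs in adipocyte nuclei, which at 3 counts allows up to 5.98 CPM and, as 0 of 224 nuclei, a share with a UMI of up to 1.34%. It was at 0.0554 CPM in the rest. Elovl3 and Zic1 were also at 0, and Cidea, a droplet protein of brown fat, had 3 UMIs. Of 18 listed genes, 9 entered the comparison with the rest. Of these, 6 were higher in adipocyte nuclei and 1 lower (median log2 ratio over all 18 genes 0.24). Slc36a2, an amino acid transporter used as a marker of brown fat, was at 741 CPM (668 to 820), against 3.73 CPM, in 144 of 224 nuclei. Prdm16, a factor that drives brown and beige identity (chr4:154316122-154637360), was at 727 CPM (654 to 806), against 202 CPM in the rest and 264 CPM in fibroblasts. It overlaps several RefSeq transcripts. Ppara was at 122 CPM, against 38.1 CPM, and Kcnk3, a potassium channel of fat, at 129 CPM, against 61.4 CPM. Ppargc1a, the coactivator of mitochondrial genes, was at 73.7 CPM, against 71.8 CPM, and the orphan receptor Esrrg was lower, at 87.7 CPM, against 372 CPM.

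Of 12 genes of mitochondrial fatty acid oxidation, 5 were higher and 1 lower (median log2 ratio 1.02). Acadl was at 141 CPM in adipocyte nuclei, against 22.1 CPM in the rest, Cpt2 at 71.7 CPM, against 14 CPM, Acadm at 163 CPM, against 49.1 CPM, Eci1 at 65.7 CPM, against 22.6 CPM, and Slc25a20 at 41.8 CPM, against 14.5 CPM. Hadha was at 108 CPM, against 77.3 CPM. Cpt1a, the entry step in liver, was lower, at 41.8 CPM, against 163 CPM. Basement membrane genes split by comparison: of 16, 8 were higher and 1 lower against the rest (1.04), but 4 were higher and 8 lower against fibroblasts (-1.24). Lama4, the laminin chain around fat cells, was at 789 CPM in adipocyte nuclei, against 45.6 CPM in the rest and 388 CPM in fibroblasts, and Lamb1 at 386 CPM, against 44.0 and 151 CPM. Col4a1 was at 703 CPM, against 165 CPM in the rest and 462 CPM in fibroblasts. The laminin-binding integrin Itga7 was at 93.6 CPM, against 16.7 CPM in the rest, Itga1 at 143 CPM, against 25.9 CPM, Itgb1 at 69.7 CPM, against 57.9 CPM, and Hspg2 at 267 CPM, against 195 CPM in the rest and 1177 CPM in fibroblasts. Of 11 progenitor markers, 2 were higher and 2 lower than in the rest (median log2 ratio -1.04). Against fibroblasts, 0 were higher and 7 lower (-3.22). Dpp4, Ly6a, Cd34 and Dlk1 were at 0. The 2 higher than in the rest were Fgf10, a growth factor of fat development, and Bmper. Fgf10 was at 179 CPM (144 to 220), against 10.4 CPM in the rest, and Bmper at 163 CPM (130 to 203), against 16.3 CPM.

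Outside the lists, Cyp2e1, a cytochrome of fatty acid and alcohol metabolism, had the most extreme ratio to the rest by interval bounds, at 1130 CPM in adipocyte nuclei, against 1.85 CPM. By piece it was at 1620, 1907 and 1857 CPM in pieces 1, 2 and 3 and at 681 CPM (591 to 781) in piece 4. The 20 genes with the highest such ratio included Mrap (299 CPM, against 0.462 CPM), an accessory protein of the ACTH receptor, and Hp (466 CPM, against 1.03 CPM), the haemoglobin scavenger haptoglobin. Klb, the co-receptor of fibroblast growth factor FGF21, was at 102 CPM, against 0.203 CPM. Lgals12, a lectin on droplets, was at 388 CPM, against 1.90 CPM. The carbonic anhydrase Car3 was at 1626 CPM, against 6.56 CPM, and the glutamine transporter Slc1a5 at 2737 CPM, against 16.5 CPM. Sctr, the secretin receptor, was at 347 CPM, against 1.20 CPM, and the organic cation transporter Slc22a3 at 237 CPM, against 0.388 CPM. The carboxylesterases Ces1d (458 CPM, against 1.05 CPM) and Ces1f (87.7 CPM, against 0.111 CPM) are close paralogues, so reads between them are uncertain. Ces1d was at 1027 CPM (802 to 1296) in piece 1, against 164 (95.4 to 262), 536 and 422 CPM in pieces 2, 3 and 4. Acsm3 was at 85.7 CPM, against 0.0924 CPM, and Apol6, which overlaps the myoglobin gene Mb, at 665 CPM, against 2.0 CPM. The rest of the 20 were the transcripts A530016L24Rik, Ctcflos, Gm3289, Gm48832, A530020G20Rik, A530053G22Rik and Gm12811. The 10 lowest were led by Kcnip4 (27.9 CPM, against 1895 CPM), a partner of potassium channels, with Dscam, Gria1, Nlgn1, Grik1, Ptprt, Kcnh5, Kirrel3, Adarb2 and Nrxn3. All 20 were higher, and all 10 lower, than the rest of the same piece in each of the 4 pieces. These genes were picked by the most extreme pooled levels of the same pieces, so that direction was largely set by the choice.

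How the adipocyte nuclei differed between pieces was not used by the rule. The lists differed most in making fatty acids: the 14 genes of that list summed to 43603 CPM (42060 to 45188) in piece 1, against 6252 (5780 to 6752), 10176 (9029 to 11428) and 3558 CPM (3348 to 3777) in pieces 2, 3 and 4. Piece 1 over piece 3, the highest of the others, was 4.29 (3.79 to 4.86). In the other barcodes the list summed to 1384, 1186, 1340 and 1160 CPM in pieces 1 to 4, and in fibroblasts to 1128, 773, 1229 and 673 CPM. The difference between pieces was thus far smaller in barcodes that were not adipocyte nuclei.

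It was seen nucleus by nucleus. The list took 0.208 to 14.8% of a nucleus's UMIs in piece 1, with a median of 4.09%. In piece 2 it took 0 to 1.85% (median 0.516%), in piece 3 0.247 to 2.51% (0.950%) and in piece 4 0 to 1.15% (0.339%). Of the 27 nuclei of piece 1, 25 were above 1%, against 5 of 48, 6 of 14 and 1 of 135 in pieces 2, 3 and 4. No nucleus of pieces 2, 3 or 4 reached the median of piece 1, though the ranges overlapped at the low end. Without Scd1 and Fasn the medians were 0.890, 0.427, 0.721 and 0.267%, and piece 1 over piece 3 was 1.44 (1.22 to 1.70) in pooled levels. Nuclei in piece 1 were deeper, with a median of 2507 UMIs, against 1973, 1955 and 1721 in the others.

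**Figure D4:**
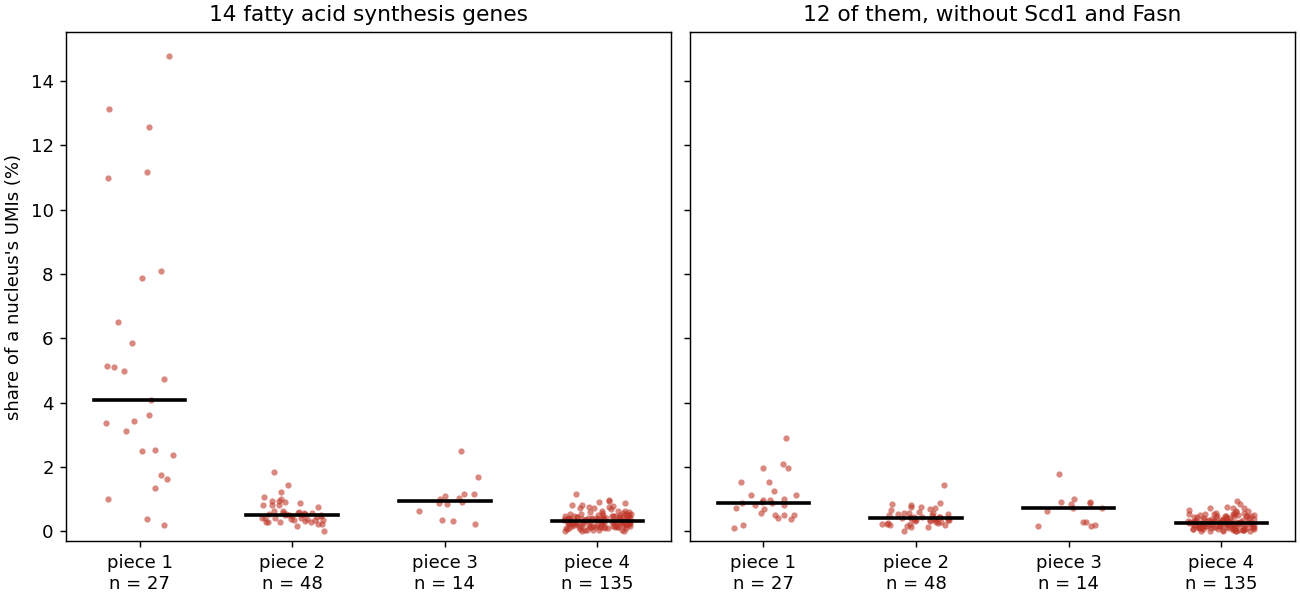
Share of a nucleus's UMIs (y axis, %) in the fatty acid synthesis list, 1 point per adipocyte nucleus and a black bar at the median, by piece (x axis). With all 14 genes (left) the median is 4.09% in piece 1 and 0.339% in piece 4. Without Scd1 and Fasn (right) the medians are 0.890 and 0.267%.

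Scd1, the desaturase that makes monounsaturated fatty acids (chr19:44394450-44407709), was at 23942 CPM (22803 to 25124) in piece 1, against 954 (775 to 1161), 1464 (1051 to 1986) and 448 CPM (376 to 531) in pieces 2, 3 and 4. Piece 1 over piece 3 was 16.4 (12.0 to 22.9). It was detected in 24 of 27 nuclei of piece 1, with a median of 48 UMIs and a maximum of 212. In the other pieces it was detected in 15 of 48, 8 of 14 and 40 of 135 nuclei, with at most 38, 13 and 21 UMIs in a nucleus. After thinning to 500 UMIs, 84.6% of the nuclei of piece 1 kept a UMI (65.1 to 95.6%), against 14.9, 28.6 and 12.0% in pieces 2, 3 and 4. Other barcodes of piece 1 were also higher, at 89.4 CPM, against 21.1, 17.6 and 16.4 CPM in those of the other pieces, and fibroblasts at 233 CPM, against 41.6, 51.3 and 55.9 CPM in fibroblasts of the other pieces. Whether RNA from neighbouring nuclei adds to those levels was not tested. Scd2, a paralogue on the same chromosome, was lower in adipocyte nuclei than in the rest, at 108 CPM, against 273 CPM.

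Fasn, fatty acid synthase (chr11:120805958-120825166), was at 9852 CPM (9126 to 10620) in piece 1, against 771 (611 to 959), 1892 (1418 to 2475) and 429 CPM (358 to 509) in pieces 2, 3 and 4, with 26 of 27 nuclei of piece 1 carrying a UMI. Acaca, the carboxylase that commits carbon to fatty acids, was at 3602 CPM in piece 1, against 1801, 2321 and 668 CPM. Acly, which supplies acetyl-CoA from citrate, was at 796 CPM (599 to 1036), against 57.8, 214 and 99.7 CPM. Slc25a1, which carries that citrate out of mitochondria, was at 434 CPM (293 to 620), against 106, 107 and 53.1 CPM, and Me1, a source of NADPH, at 694 CPM, against 173, 464 and 136 CPM. Thrsp, a partner of lipogenesis, was at 796 CPM, against 193, 464 and 279 CPM, and Acacb, the mitochondrial carboxylase, at 1881 CPM, against 1503, 1750 and 920 CPM. Acss2, which activates acetate, was high in pieces 1 and 3, at 1013 and 1143 CPM, against 260 and 126 CPM in pieces 2 and 4. Elovl5 and Fads1, which lengthen and desaturate polyunsaturated fatty acids, had their highest levels in piece 2, at 270 and 125 CPM, with intervals that overlapped those of the other pieces.

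Srebf1, which encodes the factor SREBP-1c of fatty acid synthesis, was at 376 CPM in piece 1, against 886, 357 and 425 CPM. Mlxipl was at 420 CPM in piece 1, against 954, 750 and 545 CPM. These are RNA levels, and the activity of either factor was not tested. Over all 12 list genes with at least 20 UMIs in adipocyte nuclei, 9 had their highest level in piece 1 and 0 in piece 4. Of all 4433 genes with as many UMIs, 27.2% were highest in piece 1 and 27.5% in piece 4. Pooled over the 3 other pieces, without piece 1, Scd1 was at 635 CPM in adipocyte nuclei, against 18.1 CPM in the rest, and Fasn at 605 CPM, against 118 CPM. Of the 14 genes, 10 were higher in adipocyte nuclei than in the rest and 3 lower with all pieces (median log2 ratio 1.90), and 8 and 3 without piece 1.

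Promoters are shown for the 4 genes of the list with the largest ratio of piece 1 to piece 4 that have an entry. Of these, Acss2 had its highest level in piece 3. Each is 300 bases of RefSeq's GRCm38.p6, from 250 before to 50 after an annotated start, 5′ to 3′ on the gene's own strand. For Fasn the window lies inside the gene span given above and not at its end. Capitals mark CCAAT or its reverse complement ATTGG, the box bound by the factor NF-Y, and CACGTG, the E-box, which reads the same on both strands. In Fasn a CCAAT and an ATTGG share bases.
Fasn (chr11:120824498-120824797, minus strand): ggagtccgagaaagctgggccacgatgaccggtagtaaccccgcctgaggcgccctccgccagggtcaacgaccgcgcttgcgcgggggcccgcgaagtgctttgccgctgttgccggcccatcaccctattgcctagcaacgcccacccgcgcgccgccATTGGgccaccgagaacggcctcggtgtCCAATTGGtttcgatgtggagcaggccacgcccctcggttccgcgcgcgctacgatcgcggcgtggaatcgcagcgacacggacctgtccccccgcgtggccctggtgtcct
Slc25a1 (chr16:17928170-17928469, minus strand): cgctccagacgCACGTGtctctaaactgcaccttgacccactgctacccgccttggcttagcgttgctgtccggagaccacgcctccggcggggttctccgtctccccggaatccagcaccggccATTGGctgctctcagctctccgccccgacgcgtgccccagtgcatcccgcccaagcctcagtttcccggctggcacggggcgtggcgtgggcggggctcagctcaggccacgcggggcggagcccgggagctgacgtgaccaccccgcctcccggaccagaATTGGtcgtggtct
Acss2 (chr2:155517793-155518092, plus strand): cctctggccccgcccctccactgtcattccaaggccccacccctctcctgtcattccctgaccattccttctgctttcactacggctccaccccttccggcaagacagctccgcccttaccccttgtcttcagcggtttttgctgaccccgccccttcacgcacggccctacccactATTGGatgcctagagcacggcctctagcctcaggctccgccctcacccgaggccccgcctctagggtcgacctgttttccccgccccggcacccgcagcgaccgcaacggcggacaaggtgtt
Acly (chr11:100527951-100528250, minus strand): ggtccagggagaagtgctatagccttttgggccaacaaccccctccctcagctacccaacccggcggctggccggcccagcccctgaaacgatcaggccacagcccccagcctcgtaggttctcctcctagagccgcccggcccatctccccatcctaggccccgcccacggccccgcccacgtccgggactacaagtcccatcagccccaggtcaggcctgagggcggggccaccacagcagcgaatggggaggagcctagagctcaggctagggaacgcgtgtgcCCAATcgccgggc
All 4 windows held CCAAT in at least 1 orientation (3, 2, 1 and 1 matches, as listed), and Slc25a1 alone held CACGTG. Of 11 list genes with a promoter in the table, 8 held CCAAT or ATTGG, and 2 held CACGTG. Counted in the same way, 41.1% of all 27025 genes in the table held CCAAT or ATTGG, and 8.09% held CACGTG. Over the 32851 promoters of those genes, all of the same length, the shares were 37.4 and 7.15%. These matches are letters in a window and were not tied to binding.

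Esterification and lipoprotein uptake were highest in piece 1 as well. Dgat2 was at 2705 CPM (2331 to 3122) in piece 1, against 626, 785 and 465 CPM in pieces 2, 3 and 4, Agpat2 at 1302 CPM (1047 to 1600), against 222, 107 and 163 CPM, and Lpl at 1996 CPM (1677 to 2359), against 617, 785 and 369 CPM. Acsl1 was at 5208 CPM, against 2408, 2714 and 2133 CPM. Of 9 triglyceride synthesis genes with at least 20 UMIs, 7 were highest in piece 1, and of 9 fatty acid oxidation genes 8 were, with Acadl at 347 CPM, against 116, 143 and 103 CPM. Tkt, a transketolase outside the lists, was at 1143 CPM, against 202, 143 and 116 CPM. Fabp4 was at 1302 CPM, against 270, 71.4 and 598 CPM, and Nrg4 at 1635 CPM, against 453, 1035 and 458 CPM. Mitochondrially encoded RNA took 1.36% of UMIs in adipocyte nuclei of piece 1, against 0.241, 0.400 and 0.309% in those of pieces 2, 3 and 4. In fibroblasts it took 0.265, 0.215, 0.211 and 0.265%. mt-Co1 alone was at 4036 CPM in adipocyte nuclei of piece 1, against 626, 1321 and 767 CPM. The part of cytoplasmic RNA in the levels of piece 1 was not tested.

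The transcription factor list summed to 5758, 9836, 9176 and 9211 CPM in pieces 1 to 4. Pparg was at 882 CPM (675 to 1134) in piece 1, against 1667 (1428 to 1934), 1500 (1081 to 2027) and 1531 CPM (1395 to 1678) in pieces 2, 3 and 4. Lipe was at 1693, 1464, 1571 and 1535 CPM and Slc36a2 at 637, 944, 678 and 701 CPM. Insulin action as a list summed to 8405, 7996, 8319 and 8613 CPM in pieces 1 to 4. Within it, Pik3r1 was lowest in piece 1, at 448 CPM (305 to 637), against 1715, 1178 and 1502 CPM. Ebf1, an early factor of fat cell differentiation, was likewise at 2184 CPM (1850 to 2562) in piece 1, against 3699, 3713 and 3916 CPM.

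Piece 4, which held most of the nuclei, had the highest level of 1 of 10 receptor genes (Ghr) and 2 of 10 secreted factors (Lep and Nnat) with at least 20 UMIs, beside 27.5% of all genes. Of 10 basement membrane and collagen genes with as many UMIs, 7 were highest in piece 4. That list summed to 4342 CPM in piece 4, against 2995, 3198 and 2428 CPM in pieces 1, 2 and 3. Adipocyte nuclei of piece 4 also differed in Xist, at 877 CPM, against 0, 28.9 and 0 CPM in pieces 1, 2 and 3. For a gene at 0 UMIs, the Poisson interval reached 53.4 CPM in piece 1 and 132 CPM in piece 3. Which animal each piece came from is not given. Whether the levels in piece 4 go with sex or animal was not tested. Lep was at 233 CPM (181 to 294) in piece 4, against 57.9 (15.8 to 148), 57.8 (21.2 to 126) and 0 CPM in pieces 1, 2 and 3, and in 42 of 135 nuclei, against 3 of 27, 4 of 48 and 0 of 14. Nnat was at 512 CPM (434 to 599) in piece 4, against 14.5, 48.2 and 0 CPM, and in 52 of 135 nuclei, against 1 of 27, 4 of 48 and 0 of 14. In the other barcodes Nnat was at 5.27 CPM in piece 4, against 8.82, 9.37 and 11.0 CPM. After thinning, 20.3% of the nuclei of piece 4 kept a UMI of Nnat (13.8 to 28.1%), against 0, 4.26 and 0% in pieces 1, 2 and 3. Ghr was at 11723 CPM (11339 to 12116), against 3313 (2898 to 3771), 7707 (7182 to 8260) and 4856 CPM (4074 to 5744). St6galnac5, a sialyltransferase, was at 1186 CPM in piece 4, against 159, 328 and 464 CPM. Col4a2 was at 744 CPM, against 304, 568 and 250 CPM. Leaving out the nuclei of several classes, Nnat was at 648 CPM and St6galnac5 at 1466 CPM in piece 4. Flt1 and Fli1, of vascular cells, dropped to 9.13 and 0 CPM, against 266 and 189 CPM with them. Other genes that ranked high in piece 4 came from few nuclei: Nrg1 from 1, Asic2 from 9 and Crybb2 from 7. Without the nuclei of several classes they were at 393, 507 and 36.5 CPM, against 286, 375 and 309 CPM with them.

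**Figure D5:**
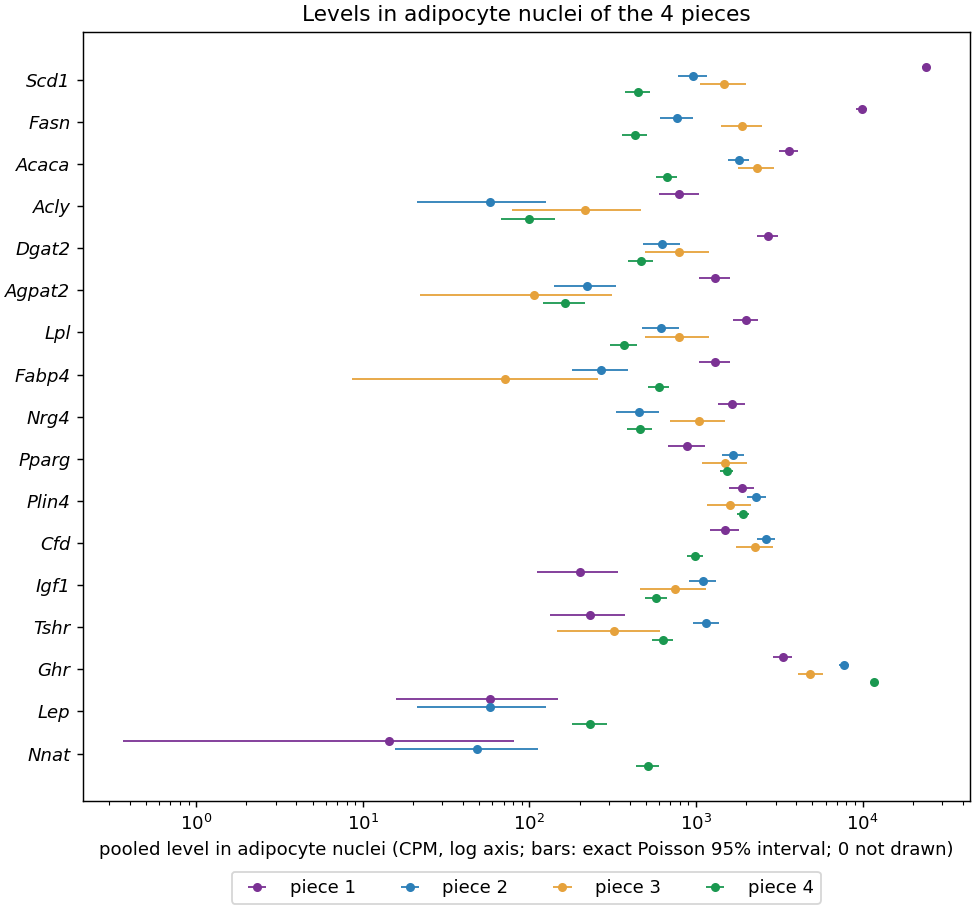
Pooled level of 17 genes in adipocyte nuclei of pieces 1 (purple), 2 (blue), 3 (orange) and 4 (green), with exact Poisson 95% intervals (log x axis, CPM, levels of 0 not drawn). Scd1 stands at 23942 CPM in piece 1 and at most 1464 CPM elsewhere. Nnat stands at 512 CPM in piece 4 and at most 48.2 CPM elsewhere, with 0 UMIs in piece 3 (interval up to 132 CPM).

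Piece 2 was highest in a further set. Hp was at 1108 CPM in piece 2, against 289, 393 and 292 CPM in pieces 1, 3 and 4, and in 31 of 48 nuclei. Cish, an inhibitor of cytokine signalling, was at 337 CPM, against 28.9, 179 and 33.2 CPM. The complement component C4b, whose paralogue C4a can take its reads, was at 857 CPM, against 203, 357 and 352 CPM. Cfd was at 2630 CPM (2327 to 2961), against 1490, 2249 and 990 CPM. Igf1, the growth factor induced by growth hormone, was at 1098 CPM, against 203, 750 and 575 CPM, and Tshr, the thyrotropin receptor, at 1156 CPM, against 231, 321 and 634 CPM. Abhd5, the activator of the lipase Pnpla2, was at 539 CPM (408 to 701) in piece 2 and 500 CPM in piece 3, against 57.9 CPM (15.8 to 148) in piece 1 and 153 CPM (112 to 204) in piece 4. Adipor2, an adiponectin receptor, was at 3718 CPM in piece 2, against 1345, 2963 and 2239 CPM in pieces 1, 3 and 4. The intervals of pieces 2 and 3 overlapped at least for Cish, Igf1, Abhd5 and Adipor2. Lef1, a factor of Wnt signalling, was at 424 CPM in piece 2 but came from 5 of its 48 nuclei.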

How the data were processed

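The deposited expression matrix gives whole-number UMI counts of each gene in each barcode. The deposited position table locates every barcode on the chip by x and y, in another unit of unstated length. According to the submitters' processing notes, the tools were fastp, STAR and Seurat 4.1.1, with mm10 as the build. Neither roles, strand setting nor use of introns could be read from those notes. No barcode occurred more than once.

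Levels are CPM over the summed UMIs of a class and have exact Poisson intervals. For shares the interval is the exact binomial one of Clopper and Pearson. Intervals of ratios come from the exact binomial distribution of the 2 counts. No p-value was computed, since 1 library without a group has no replicates. The calls were tested on simulated counts with known folds. No doublet caller was run, and marker genes of 2 classes in 1 barcode were counted instead.

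Comparison classes needed at least 3 UMIs and 0.15% (rods 2%) of UMIs in 6 markers. Pieces came from k-means with 4 centres, and circles fitted to RPE barcodes were an alternative. The distance from the RPE was taken from the median RPE barcode of each of 24 sectors per piece. Gene positions were matched by symbol to RefSeq (139 of 149 named genes). Named genes were, per list, up to 5 of highest and 2 of lowest ratio to the rest with at least 20 UMIs, the gene differing most between pieces, and the 20 highest and 10 lowest outside the lists. Genes named by piece led a rank of interval bounds or belong to the lists. That rank, and the gene differing most between pieces, used pieces 1, 2 and 4 only, so piece 3 was not ranked. Members and lists were chosen with earlier results of these data known. Python 3.11.15, numpy 2.4.6, pandas 2.3.3, scipy 1.17.1, scikit-learn 1.9.0 and matplotlib 3.10.9 were used.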

Additional observations from a re-analysis of the deposited data

How the results depend on the processing

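No paired analysis was possible because 1 expression library without a group leaves nothing to pair. The rule gave 188 to 203 nuclei under its 4 alternatives, the neighbour ratio stayed at 10.3 to 17.5 and the share outside the RPE at 98.9 to 100%. The number of genes higher than in the rest, fibroblasts and endothelium was 1205, 1115 and 1120. It became 763, 631 and 653 at a ratio of 3, 2651, 3141 and 2884 with no filter on low levels, and 775, 659 and 689 with a mean of at least 50 CPM, where fewer or more genes enter by construction. Under the other 10 alternatives per comparison it moved by under 1.5 times.

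The alternatives for differences between pieces were chosen after seeing the data. Scd1 in piece 1 over the highest other piece was 12.4 to 20.3 under 6 of them. For Fasn the ratio was 5.21, and became 8.11 as a mean of single barcodes and 7.64 with rule genes at 0.3% or more. For the fatty acid synthesis list it was 4.29, and 5.31 as a mean of single barcodes. The cause was not tested. Single levels moved beyond their intervals for Fabp4 (485 CPM without piece 1 to 696), Nrg4 (494 without piece 1 to 941 without piece 4), Pparg (1614 to 1710) and Lep (49.8 without piece 4). The 14 nuclei of piece 3 hold 28008 UMIs, which limits its values most.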
